A study of Mus musculus with 5 samples.

Results

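Kidney miRNAs at 48 h after reperfusion were compared with those at 24 h, which are 2 of the 5 arrays of this time course of acute kidney injury. In both groups, male C57B/6 mice underwent bilateral renal ischemia-reperfusion injury (IRI) with 30 min of warm ischemia, and kidney total RNA labelled with Cy3 was hybridized to an Agilent mouse miRNA array. The age of the mice was not given in the sources used here. The labels give 8 mice per time point but 1 array per group, and whether the RNA of the mice was pooled is not stated. No spread between mice was therefore measured, no test between the time points was possible, and each error below is the scanner's error for the spots of 1 array. The array holds probes for 1247 miRNAs. The signal of a miRNA was taken as the sum of its own probes whose signal exceeded 3 times their error, divided by the effective feature size, a scanner setting for the area of a spot. A miRNA with at least 1 such probe is called detected. Of the 1247 miRNAs, 190 were detected on both arrays, 108 at 24 h only, 7 at 48 h only, and 942 on neither.

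miRNAs are short RNAs cut from hairpin precursors, each of which can give a 5p and a 3p product (its arms). A miRNA finds its mRNA targets mainly through its seed, bases 2 to 8, and lowers their translation and stability. In the injured kidney, tubular epithelium dies and is later replaced, leukocytes enter and leave, and fibroblasts may begin to lay down matrix, so that miRNAs typical of each of these cells are read from the same tissue RNA. In such tissue RNA, fewer cells of a type and less RNA per cell cannot be told apart.

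The general result was a fall. The total signal was 176642 ± 4022 at 24 h and 125442 ± 3458 at 48 h, or 71.0% of the 24 h value (log2 ratio −0.49, scanner error 0.052). Single miRNAs fell further than the total, with a median log2 ratio of −0.89 over the 190 miRNAs detected on both arrays, or 53.9% of the 24 h signal. Their log2 ratios ran from −3.32 to 0.58, with quartiles of −1.26 and −0.51. Below 0 were 180 miRNAs, 152 of them by more than 2 scanner errors (80.0% of 190), and above 0 were 10 (5.26%). Only miR-494-3p (0.526% of 190) lay above 0 by more than 2 scanner errors, and 37 miRNAs lay within 2 scanner errors of 0. Of 130 miRNAs read by 2 or more probes on both arrays, 124 had every probe below 0 and 5 every probe above, and the median gap between probes of a miRNA was 0.099.

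The size and sign of the general fall depend on how the arrays are put on a scale. The 24 h and 48 h arrays shared a slide but not a scan, so time and scan cannot be told apart. The 12 h array shared slide and scan with the 24 h array, while sham and 6 h were on another slide, and values given for these 3 arrays are for context. The scanner software had set an effective feature size of 0.776 for the 24 h array and its default of 0.6 for the 48 h array. Without the division by it, the median was −1.26. The 4 spike-ins, RNAs added to the sample during labelling or hybridization, had a mean log2 ratio of 0.32 (−0.0048 to 0.52), and after scaling by them the median was −1.21. The 5 other positive controls had a mean log2 ratio of −0.30 (−0.67 to −0.03), so the controls did not move together. With the 75th percentile set equal on both arrays the median was 0.05 and 99 of the 190 miRNAs were higher at 48 h. After quantile normalization, and in the table of processed log2 values that was also deposited, the median was 0.11, with 104 and 106 miRNAs higher. The 75th percentile and quantile scalings remove a general fall by their construction. Log2 ratios of single miRNAs are given unscaled, so they shift with a scaling factor, while their distance from the median of all (the centred log2 ratio) does not. Of the 10 highest log2 ratios, 9 were above 0 unscaled, 3 without the feature size, and 4 after spike-in scaling.

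**Figure D1:**
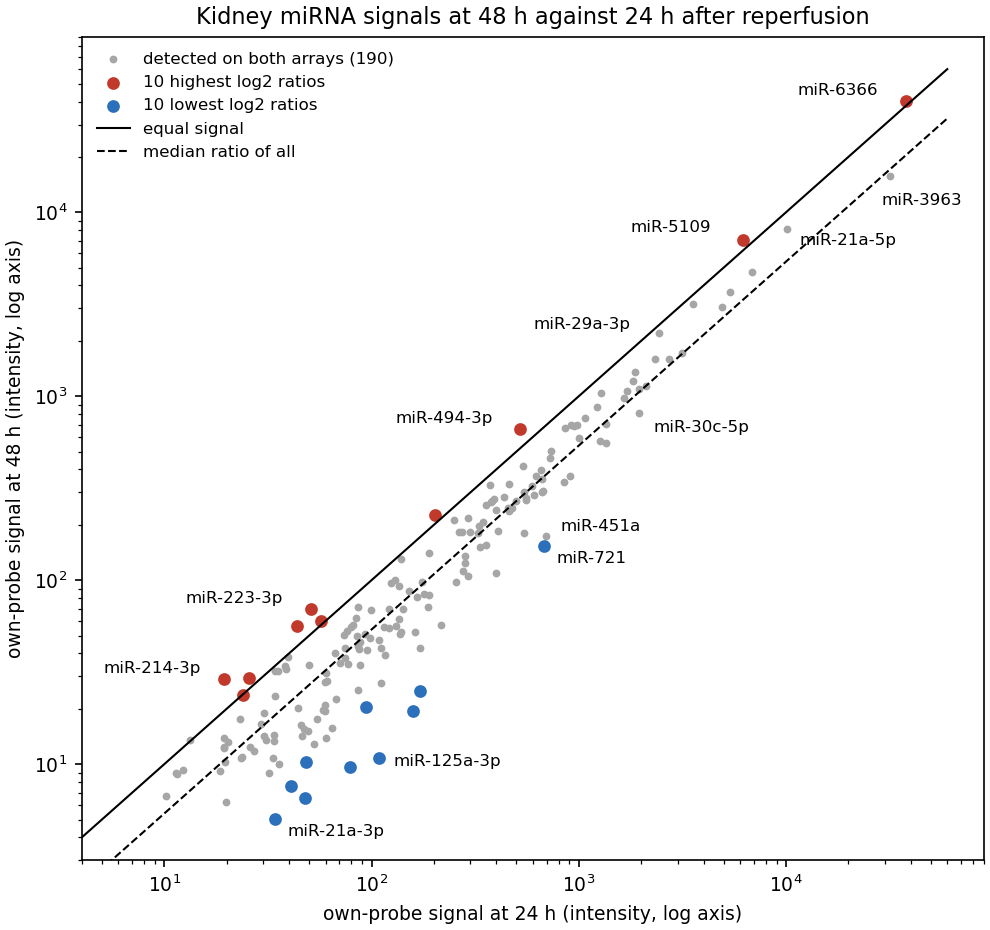
Own-probe signals of the 190 miRNAs detected on both arrays, 24 h on the x axis and 48 h on the y axis (intensity, both axes logarithmic, 1 array per time point). Most points lie below the line of equal signal and around the dashed line of the median log2 ratio of −0.89, while miR-6366, miR-5109, miR-494-3p, and miR-223-3p lie on or above the line of equal signal.

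The miRNAs that stayed high against this fall are shown first by sequence, since the array reads them by probes to the mature RNA. The sequences are those of RefSeq (build GRCm38.p6), 5′ to 3′, with the seed in capitals. Among the 10 highest log2 ratios, 6 miRNAs matched RefSeq entries.
miR-214-3p: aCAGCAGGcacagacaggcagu
miR-223-3p: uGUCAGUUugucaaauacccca
miR-3095-3p: uGGACACUggagagagagcuuuu
miR-494-3p: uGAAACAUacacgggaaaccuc
miR-6366: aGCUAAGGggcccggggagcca
miR-155-5p: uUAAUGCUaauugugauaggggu
These 6 miRNAs have 6 different seeds and lie apart in the genome. On chromosome 1, miR-214-3p (chr1:162223438-162223459, plus strand) lies within Dnm3 and the long noncoding RNA gene Dnm3os. The X chromosome holds miR-223-3p (chrX:96242884-96242905, plus strand) within the long noncoding RNA gene F630028O10Rik. Lpar1 holds miR-3095-3p (chr4:58441023-58441045, minus strand) within its span. No other gene span of the annotation covers miR-494-3p (chr12:109715367-109715388, plus strand) or miR-6366 (chr16:18165093-18165114, minus strand). Within Mir155hg, its long noncoding host gene, lies miR-155-5p (chr16:84714143-84714165, plus strand). The annotation used here gives whole gene spans without exons.

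The second set holds 4 of the miRNAs that fell furthest, with the brighter arms of the same hairpins for miR-125a and miR-21a and with miR-3963, the miRNA that lost the most signal. The choice of these for printing was made after their values were seen.
miR-125a-3p: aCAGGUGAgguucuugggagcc
miR-125a-5p: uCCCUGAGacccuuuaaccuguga
miR-21a-3p: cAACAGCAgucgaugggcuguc
miR-21a-5p: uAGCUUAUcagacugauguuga
miR-760-3p: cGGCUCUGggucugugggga
miR-721: cAGUGCAAuuaaaagggggaa
miR-3963: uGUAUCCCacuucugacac
Both arms of miR-125a lie within Spaca6 (chr17:17830817-17830840 for the 5p arm and chr17:17830855-17830876 for the 3p arm, plus strand), and both arms of miR-21a within Vmp1 (chr11:86584120-86584141 and chr11:86584082-86584103, minus strand). The span of Cux1 holds miR-721 (chr5:136375777-136375797, minus strand), and miR-3963 lies at chr3:151023839-151023857 (minus strand) in no other gene span. On chromosome 3, too, miR-760-3p (chr3:122293615-122293634, minus strand) lies within the span of Gm40190.

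Highest among the miRNAs with a scanner error of at most 0.5 was miR-214-3p, which is processed from the same long RNA as miR-199a-2 and is known from fibroblasts and other mesenchymal cells. Its signal was 19.5 ± 4.06 at 24 h and 29.1 ± 3.98 at 48 h (log2 ratio 0.58, scanner error 0.36). It was read by 1 detected probe of 13 bases, and the earlier arrays gave 22.0 in sham, 26.2 at 6 h, and 16.6 at 12 h. Its signal at 48 h was thus the highest of the 5 arrays, by less than 1 scanner error over that at 6 h. In the deposited total gene signal, the scanner software's own sum per miRNA, its centred log2 ratio was −0.37, against 1.47 by its own probe.

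Next was miR-223-3p, the miRNA of neutrophils and other myeloid cells, with 50.9 ± 6.22 at 24 h and 69.6 ± 7.04 at 48 h (log2 ratio 0.45, scanner error 0.23). A part of this difference came from its shorter probe, which was detected at 48 h only. The longer probe, detected on both arrays, gave 50.9 and 57.6, a log2 ratio of 0.18. At 6 h and 12 h the signal of miR-223-3p was higher still, 92.9 and 106.8, against 41.4 in sham. The 48 h value therefore lay above 24 h and below the earlier times.

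The one miRNA above 0 by more than 2 scanner errors was miR-494-3p, a member of the imprinted miRNA cluster on chromosome 12 that has been studied in ischemic kidney injury. Its signal was 523 ± 40.1 at 24 h and 660 ± 50.6 at 48 h (log2 ratio 0.34, scanner error 0.16). This difference depends on the scale, since the log2 ratio was −0.04 without the feature size and 0.01 after spike-in scaling. Its centred log2 ratio was 1.23. Its pair of probes gave log2 ratios of 0.29 and 0.35. The time course was 168 in sham, 529 at 6 h, and 1098 at 12 h, the highest of the 5 arrays. By signal it moved from rank 49 at 24 h to rank 28 at 48 h.

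Abundant miRNAs were also among the 10 that stayed high. The brightest miRNA of both arrays was miR-6366, with 38025 ± 2838 at 24 h and 40385 ± 3014 at 48 h (log2 ratio 0.09, scanner error 0.15). Its probes of 11 and 12 bases both gave a log2 ratio of 0.09. As the other miRNAs fell around it, its share of the total signal went from 21.5% to 32.2%. After quantile normalization and in the processed table its centred log2 ratio was −0.11 in both. It ranked first on both arrays, and in quantile normalization the rank fixes the value. A similar course was that of miR-5109, with 6198 ± 476 at 24 h and 7058 ± 549 at 48 h (log2 ratio 0.19, scanner error 0.16), whose share went from 3.51% to 5.63%. On the sham array miR-5109 had 2615, and at 6 h and 12 h it had 11856 and 11937.

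The 5 others were of lower signal. The signals of miR-3095-3p were 43.7 ± 5.92 and 56.6 ± 5.55 (log2 ratio 0.37, scanner error 0.24), with 0.31 and 0.44 by its single probes. Those of miR-1949, read by 1 detected probe, were 25.5 ± 4.38 and 29.4 ± 4.02 (log2 ratio 0.20, scanner error 0.32). The last of the 10 was miR-155-5p, which is induced in activated leukocytes, with 24.1 ± 4.30 and 23.8 ± 3.62 (log2 ratio −0.01, scanner error 0.34). Both of its values lay above the 13.3 to 17.8 of the sham, 6 h, and 12 h arrays. Over the 17.8 at 6 h, the margin of each was less than 2 of its scanner errors. The signals of miR-5097 were 202 ± 16.5 and 227 ± 18.6 (log2 ratio 0.17, scanner error 0.17), and its probes differed in sign, with −0.09 and 0.25. All 4 probes of miR-669p-3p gave log2 ratios between 0.05 and 0.09, from 57.3 ± 4.58 at 24 h and 59.9 ± 4.06 at 48 h.

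The 10 were chosen for these values, which are therefore a description. The 11th highest was miR-466q with a log2 ratio of −0.04, close to the last of the 10. Above 0 but with a scanner error of 0.52 was miR-34b-5p (13.3 and 13.5, log2 ratio 0.02). Relative to the median, 7 miRNAs lay at least 2-fold above it (3.68% of 190) and 17 at least 2-fold below it (8.95%). By more than 2 scanner errors, 46 lay above the median (24.2%) and 41 below it (21.6%).

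**Figure D2:**
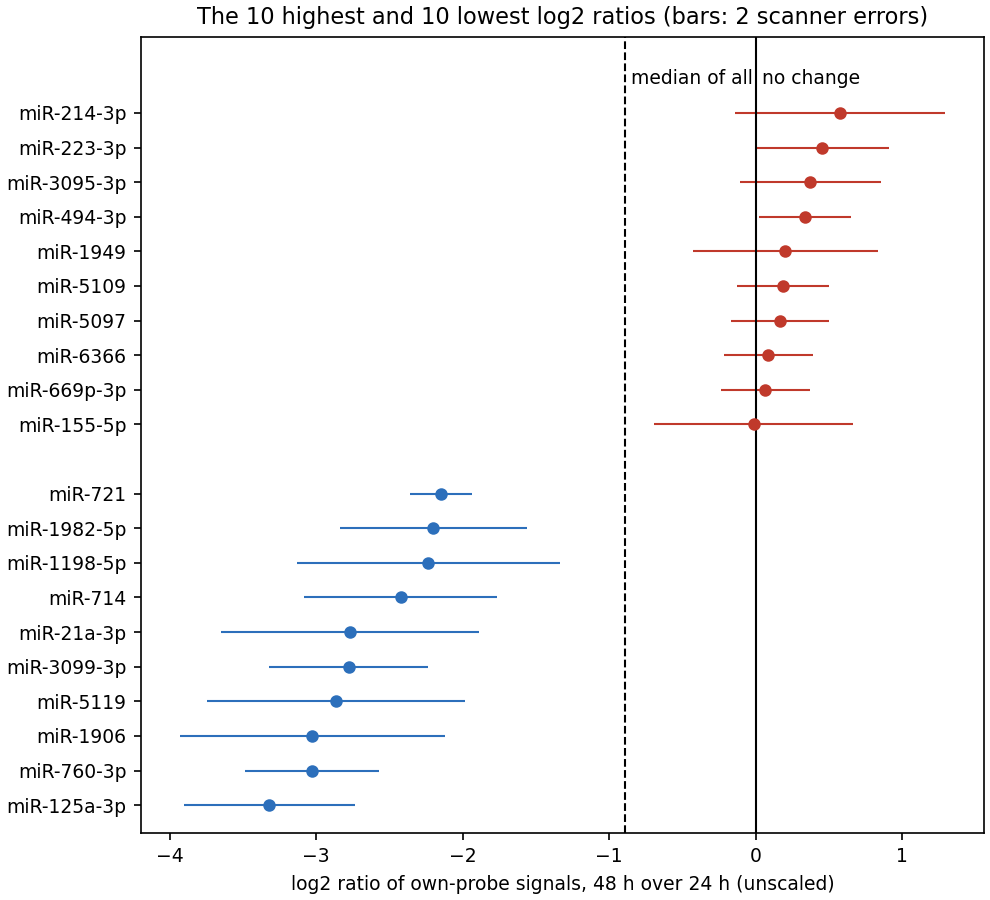
Unscaled log2 ratios of own-probe signals, 48 h over 24 h, for the 10 highest (red) and 10 lowest (blue) miRNAs detected on both arrays with a scanner error of at most 0.5; bars are 2 scanner errors, 1 array per time point. On this unscaled axis the bar of miR-494-3p clears 0, and all 10 lowest lie left of the dashed median of −0.89 by more than their bars.

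At the other end, miR-125a-3p fell furthest by the sum of its detected probes, from 108 ± 6.70 at 24 h to 10.8 ± 2.07 at 48 h (log2 ratio −3.32, scanner error 0.29). All 4 of its probes were detected at 24 h but 2 at 48 h, which deepens its ratio, and those 2 gave log2 ratios of −2.46 and −2.31. By those 2 together it had −2.40, a smaller fall than those of miR-760-3p (−3.03) and miR-3099-3p (−2.78). These had as many detected probes on both arrays. The signal of miR-125a-3p had been 19.3 in sham and 122 at 12 h. All 4 probes of miR-760-3p were detected on both arrays, and its signal fell from 158 ± 8.91 to 19.4 ± 2.90 (log2 ratio −3.03, scanner error 0.23; −3.29 to −2.76 by probe). Similarly, miR-721 fell from 680 ± 34.4 to 154 ± 8.16 (log2 ratio −2.15, scanner error 0.11), with −2.21 to −2.06 over its 4 probes. It was the brightest of the 10, with 277 in sham and 153 at 6 h.

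The remaining 7 of the lowest 10 were miR-1906 (−3.03), miR-5119 (−2.86), miR-3099-3p (−2.78), miR-21a-3p (−2.77), miR-714 (−2.42), miR-1198-5p (−2.23), and miR-1982-5p (−2.20). Of these, miR-3099-3p had the highest signal at 24 h, and it fell from 171 ± 13.4 to 24.9 ± 4.25. Fewer probes were detected at 48 h than at 24 h for miR-1906, miR-5119, miR-21a-3p, and miR-714, which deepens their ratios. By the probe detected on both arrays they had −2.16, −1.31, −2.07, and −1.93. The same was true of 31 of the 190 miRNAs, while 158 had as many detected probes on both arrays and miR-223-3p had more at 48 h. In the total gene signal miR-1906, miR-21a-3p, and miR-5119 lay above the median, at 0.38, 1.89, and 0.68. The 11th lowest was miR-204-5p, a miRNA of the kidney tubule, which fell from 60.2 to 13.8 (log2 ratio −2.12, or −1.65 by the probe detected on both arrays).

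**Figure D3:**
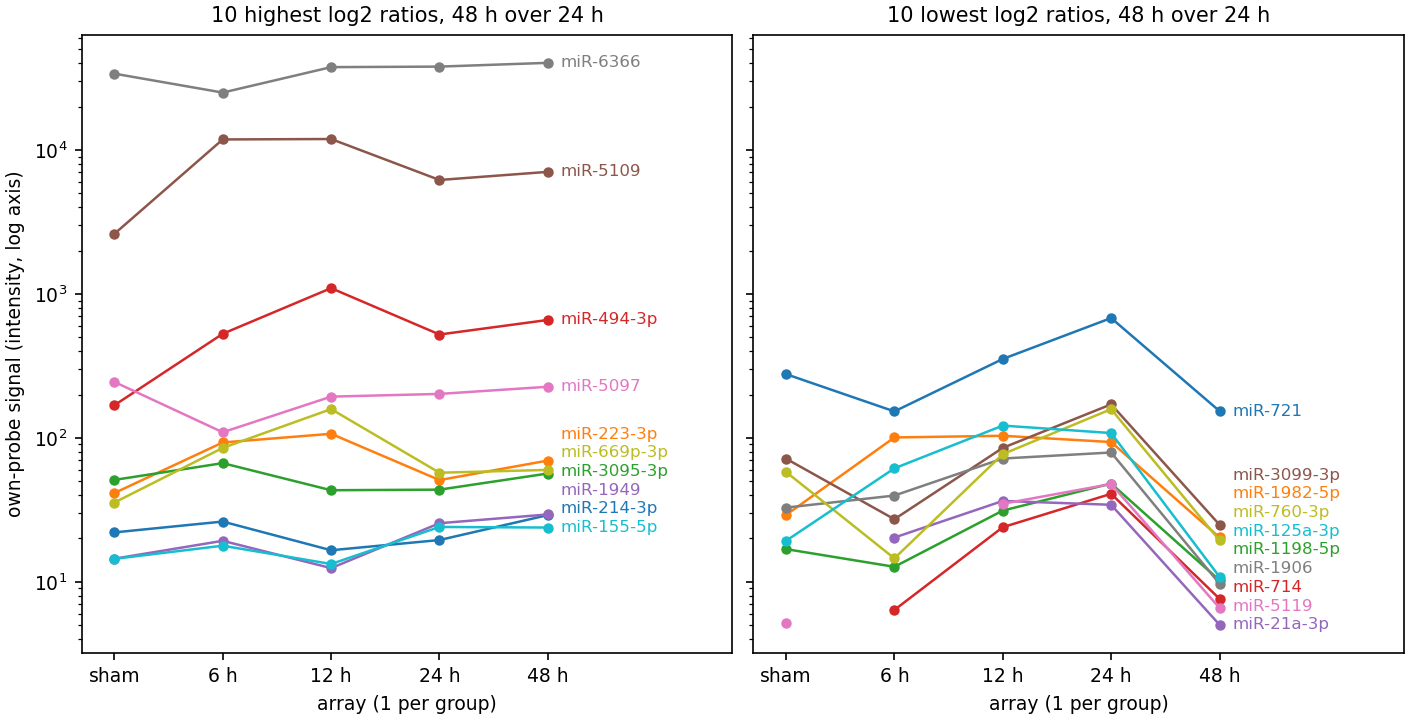
Own-probe signals (intensity, logarithmic axis) on the 5 arrays from sham to 48 h, 1 array per group, for the 10 highest (left) and 10 lowest (right) log2 ratios of 48 h over 24 h; a gap marks an array without detection. On the left the 48 h point lies above the 24 h point for 9 of the 10, with miR-155-5p just below (24.1 and 23.8), and on the right every line drops after 24 h.

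Most of the lost signal came from a few abundant miRNAs. The difference of the totals was −51200, and miR-3963 made up 31.4% of it, with 31848 ± 2431 at 24 h and 15767 ± 1228 at 48 h. Its log2 ratio of −1.01 (scanner error 0.16) was close to the median of all, and its share of the total went from 18.03% to 12.6%. The next largest falls were those of miR-3473b (−2168), miR-21a-5p (−1999), let-7c-5p (−1846), and let-7b-5p (−1651), and the 10 largest falls together made up 57.2%. Against these stood 3498 of added signal in 17 miRNAs, of which miR-6366 gained 2361, miR-5109 860, and miR-494-3p 137. Of the 17, 10 were detected on both arrays. The other 7 were detected at 48 h only and were counted with a signal of 0 at 24 h, so they are not measured gains. The 10 brightest miRNAs held 63.9% of the signal at 24 h and 71.7% at 48 h.

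The arms of a hairpin did not always move alike. The main arm miR-21a-5p, a miRNA induced by kidney injury, had 10162 ± 876 at 24 h and 8163 ± 715 at 48 h (log2 ratio −0.32, scanner error 0.18), and at 48 h it still stood above its 1384 in sham. Its partner miR-21a-3p went from 34.3 ± 3.54 to 5.03 ± 1.45, a difference between the arms of −2.45 (scanner error 0.48) on the log2 scale, or −1.75 (0.49) by probes detected on both arrays. Above the median lay miR-21a-3p in the total gene signal and after normexp background correction, here with a constant added to every spot. By quantile normalization and in the processed table miR-21a-5p lay below the median. It had rank 3 on both arrays, and in quantile normalization the rank fixes the value. The arms of miR-125a differed by −2.74 (scanner error 0.34), or −1.82 (0.35) by such probes, with 274 ± 24.1 and 184 ± 16.6 for the 5p arm (log2 ratio −0.58). For miR-29c the difference of the arms was −0.97 (scanner error 0.43), with −0.37 for the 3p and −1.34 for the 5p arm, but −0.37 (0.45) by such probes, within its error. Of 9 hairpins with both arms detected on both arrays, the difference exceeded 2 scanner errors in these 3, and by probes detected on both arrays in 2, miR-125a and miR-21a. The arms of miR-199a, for example, differed by 0.09 (scanner error 0.33). The hairpins were looked up after the values of miR-125a-3p and miR-21a-3p had been seen.

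Lists of miRNAs that mark cell types or share a seed were then read against the median of all, above which 95 of the 190 miRNAs (50%) lie by definition. The matrix-regulating miR-29 family lay above it with all 3 members, at −0.15 for miR-29a-3p, −0.50 for miR-29b-3p, and −0.37 for miR-29c-3p. Their signals went from 2432 to 2199, from 378 to 266, and from 862 to 668. Their median stayed above that of all miRNAs in every alternative tried, but miR-29a-3p lay below it in the processed table. Alternatives that only scale an array by a factor cannot change such a position, here or for the lists below. They share the seed AGCACCA, as their sequences show.
miR-29a-3p: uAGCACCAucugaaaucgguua
miR-29b-3p: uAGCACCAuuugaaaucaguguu
miR-29c-3p: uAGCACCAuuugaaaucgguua

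The mesenchymal miRNAs of the stroma list had a median log2 ratio of −0.23 over 5 detected of 6 members, with 4 above the median of all. Besides miR-214-3p these were miR-199a-3p (250 and 213, log2 ratio −0.23), miR-199a-5p (35.5 and 32.2, −0.14), and miR-199b-5p (83.7 and 62.1, −0.43). The smooth muscle pair behaved otherwise, since miR-143-3p went from 137 to 51.0 (−1.42) and miR-145a-5p, with 49.98 at 24 h, was not detected at 48 h. The median of the list stayed above that of all miRNAs in every alternative.

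Of 7 leukocyte miRNAs, miR-223-3p and miR-155-5p were detected on both arrays, with a median of 0.22, and both were among the 10 highest. By the probe detected on both arrays, miR-223-3p had 0.18 (scanner error 0.24). In the total gene signal the list median was 0.16 relative to that of all, and miR-155-5p lay below it, at −0.15. The T cell and monocyte miRNA miR-146a-5p was detected at 24 h only (16.1) and miR-142-3p, a general marker of blood cells, at 48 h only (8.62), while miR-142-5p, miR-150-5p, and miR-146b-5p were detected on neither. The defining markers were thus dim or undetected. The brightest, miR-223-3p, had 50.9 and 69.6, against median detected signals of 53.1 at 24 h and 57.1 at 48 h. The red blood cell miRNA miR-451a fell from 693 ± 51.2 to 175 ± 13.4 (log2 ratio −1.99, scanner error 0.15), and it lay below the median of all in every alternative. Its signal had been 266 in sham, 834 at 6 h, and 302 at 12 h. The other members of that list, miR-144-3p and miR-144-5p, were not detected, and miR-486-5p was not analysed here. The endothelial miR-126-5p was not detected on either array, and miR-126-3p went from 1655 to 977 (log2 ratio −0.76), near the median of all. It lay below that median after quantile normalization, after normexp correction, in the total gene signal, and in the processed table. Its rank was 19 on both arrays, and in quantile normalization the rank fixes the value. The part of blood content in these results was not tested.

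Tubular and epithelial miRNAs, which define the kidney tissue, were read on both arrays. The tubule list had a median of −0.86 over 3 detected of 5 members, close to that of all miRNAs, and which of the medians was higher changed with the alternative. Its members miR-192-5p and miR-194-5p went from 1224 to 872 (−0.49) and from 327 to 180 (−0.86), while miR-215-5p and miR-192-3p were not detected. The 5 members of the miR-200 family, which keep epithelium from mesenchymal change, had a median of −0.77, with 3 above the median of all; this median fell below that of all miRNAs after quantile normalization and normexp correction, in the total gene signal, and in the processed table. The brightest of them, miR-200b-3p, went from 1006 to 591, and miR-429-3p was the highest, with −0.46. The miR-30 family, abundant in tubule and podocyte, had a median of −1.15 over 5 members, with miR-30a-5p (2740 and 1592, −0.78) alone above the median of all. Its lowest member was miR-30c-5p, which fell from 1945 to 810 (−1.26). In every alternative the median of the miR-30 family lay below that of all miRNAs. The 6 miRNAs of muscle, liver, and brain were not detected on either array.

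Several families of proliferating cells and of general abundance lay somewhat above the median of all. The miR-17~92 and miR-106b~25 clusters, known for promoting cell cycle entry, had a median of −0.54, and all 7 detected of 9 members lay above the median of all, from −0.84 for miR-106b-5p to −0.09 for miR-18a-5p. The signal of miR-18a-5p was 34.3 at 24 h and 32.3 at 48 h, against 10.4 to 12.1 on the other arrays; in the total gene signal it lay below the median of all, at −0.82. For the let-7 family, which restrains growth, the median was −0.67 with 7 of 9 members above the median of all, and it fell below after quantile normalization and normexp correction and in the processed table. Its highest member, let-7i-5p, went from 1284 to 1047 (−0.29), and its brightest, let-7b-5p, from 5346 to 3696 (−0.53). The miR-15/16 family, which restrains the cell cycle, had a median of −0.73 with 6 of 6 above the median of all, which fell below after normexp correction. The brightest member was miR-15a-5p (620 and 369), and miR-15b-5p was the highest (−0.18). For miR-10, miR-99/100, and miR-125 the median was −0.58, with 6 of 7 above the median of all and miR-125b-5p (675 and 304, −1.15) below it. Members of a family differ by few bases, and signal shared between them was not tested.

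Below the median of all lay the miR-23/27/24 clusters, with a median of −1.03 and 0 of 5 members above it, and miR-26 and miR-101, with −1.14 and 1 of 3 detected members above it. Both medians stayed below in every alternative. The lowest was miR-23b-3p, which fell from 852 to 342 (−1.32). The growth-restraining miR-26a-5p fell from 1273 to 573 (−1.15), and its relative miR-26b-5p from 408 to 185 (−1.14). The injury and repair list had no common course, with a median of −1.07 and 2 of 5 members above the median of all, and its own median lay above that of all in 5 of the 13 alternatives. Besides miR-21a-5p, the p53 target miR-34a-5p lay above it (391 and 278, −0.49), and miR-132-3p and miR-212-3p, which share a seed, lay below it (−1.07 and −1.93).

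Of the 6 miRNAs that the study followed by qRT-PCR, 4 were detected on both arrays, and all 4 lay above the median of all (list median −0.21). These were miR-214-3p, miR-18a-5p, miR-182-5p (11.4 and 8.996, log2 ratio −0.34, scanner error 0.66), and the hypoxia-induced miR-210-3p (19.5 and 13.9, log2 ratio −0.48, scanner error 0.44). The signals of miR-34b-3p and miR-134-5p were 12.3 and 6.32 at 24 h, and neither was detected at 48 h. All 6 were thus dim on these arrays, and in the total gene signal the list median was −0.06 relative to that of all. The list was taken from the study of the same experiment, and it is not independent evidence of a direction.

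**Figure D4:**
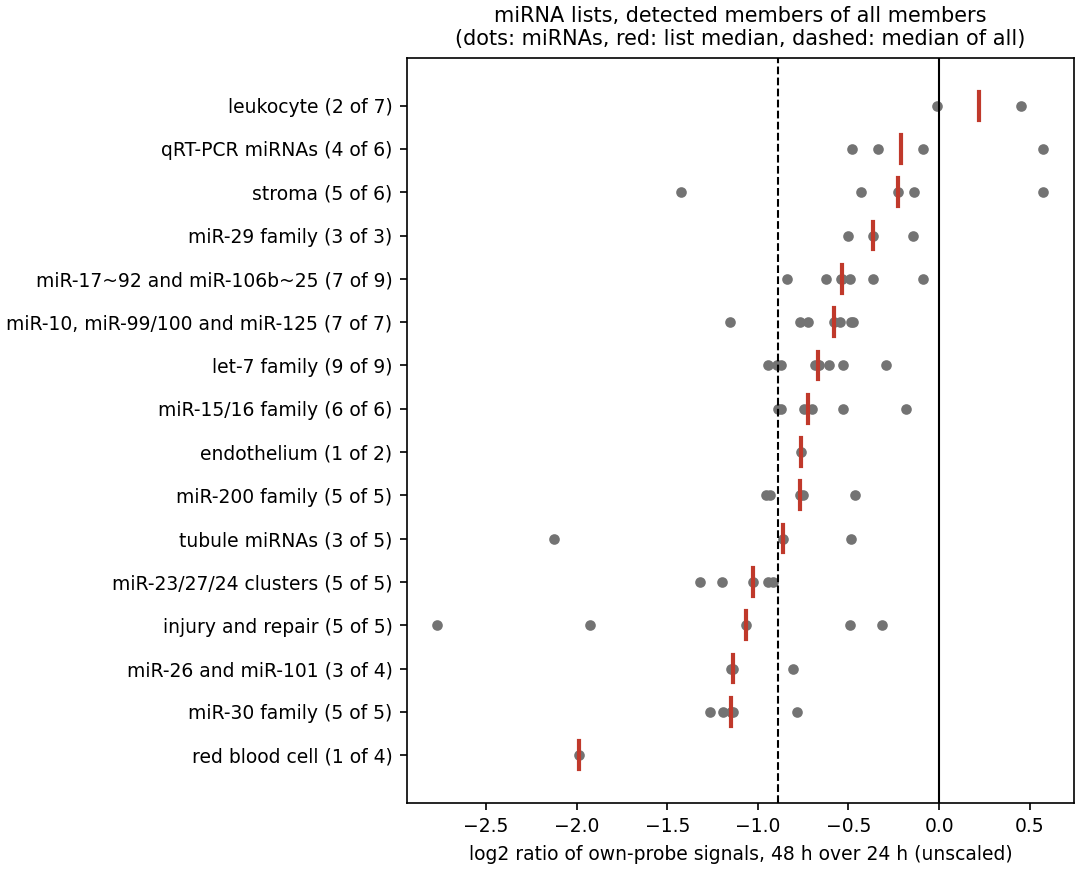
Unscaled log2 ratios of own-probe signals, 48 h over 24 h, for miRNA lists; each dot is a miRNA detected on both arrays, red lines are list medians, and the numbers after each name are detected members of all members (1 array per time point). Stroma, miR-29, and leukocyte medians (−0.23, −0.37, and 0.22) lie right of the dashed median of all miRNAs at −0.89, and miR-30 and miR-451a lie left of it. The leukocyte median is that of 2 miRNAs, of which miR-223-3p had 0.18 by the probe detected on both arrays.

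The detection limit decided part of the picture. The lowest detected signal was 5.60 at 24 h and 4.62 at 48 h. The 108 miRNAs detected at 24 h only had a median signal of 16.4 and held 1.45% of the 24 h signal, and 46 of them were read by 2 or more probes. Brightest among them were miR-6412 (93.1 ± 9.54), miR-328-3p (85.6 ± 7.91), and miR-6392-3p (71.2 ± 7.22). At 48 h the summed signals of their undetected probes were 8.92, 10.97, and 5.12. All 3 signals at 24 h lay well above 11.6 to 11.8, which is 3 times the combined scanner error of their probes at 48 h. Detection itself was decided for each probe by its own error. The 7 miRNAs detected at 48 h only had 4.62 to 11.5, each by 1 probe, and were led by miR-669c-3p (11.5 ± 2.96), miR-5113 (11.3 ± 2.95), and miR-96-5p (10.5 ± 2.92). Their undetected probes summed to 8.40, 8.72, and 15.2 at 24 h, so no difference was detectable at this signal.

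Base composition and probe length both moved with the log2 ratio. RefSeq sequences were matched for 155 of the 190 miRNAs, and all of the 333 probes of these read the named arm. The median log2 ratio was −0.62 for the 23 miRNAs with under 40% GC, −0.71 for 56 with 40% to under 50%, −1.05 for 45 with 50% to under 60%, and −1.14 for 31 with 60% or more. Across these 155 miRNAs, which share 2 arrays and are not independent, Spearman's rho with GC content was −0.36 and Pearson's r −0.30. With probe length, over all 190 miRNAs, rho was 0.39 and r 0.34. Probes are shorter for GC-rich miRNAs (rho −0.78), so both properties move together, and their part in the ratios was not tested. Signal moved less with the ratio (rho 0.12 with the log2 signal at 24 h). Among miRNAs with a signal of at least 100 on both arrays, the medians were −0.82 for 9 with 60% GC or more and −0.62 for 11 with under 40%. Of these 9 and 11, 6 and 8 lay above the median of all. The brightest miRNA, miR-6366, went against this order, with 72.7% GC and a log2 ratio of 0.09.

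**Figure D5:**
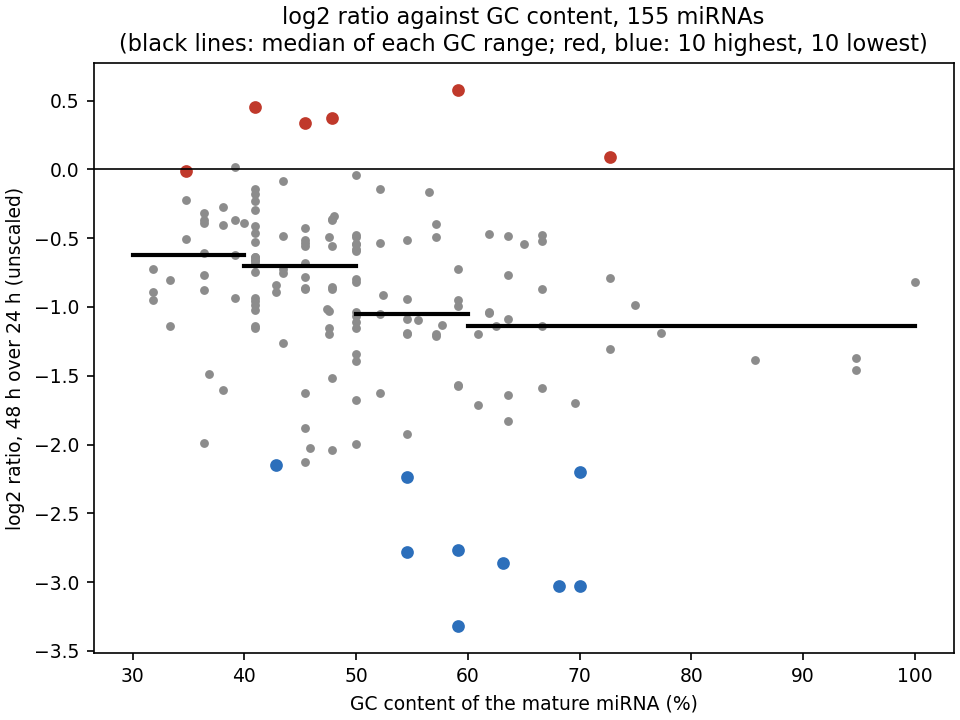
Unscaled log2 ratio of 48 h over 24 h (y axis) against the GC content of the mature miRNA in percent (x axis) for the 155 miRNAs with a RefSeq sequence; black lines are the medians of the GC ranges, and red and blue points are members of the 10 highest and 10 lowest. The medians step down from −0.62 under 40% GC to −1.14 at 60% or more, with a wide spread in each range.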

How the data were processed

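Kidney RNA of 5 groups was measured with 1 array each, and groups were taken from the sample titles. The authors deposited the intensity values of Agilent Feature Extraction 10.7.1.1, background-subtracted and detrended within an array but not normalized between arrays. They also deposited a table of log2 values whose making is not given in the sources used here, which served as an alternative only. Detected probes (signal above 3 times the error) were summed once each per miRNA and divided by the effective feature size, which cancels the factor that the software had applied. Scanner errors were added in squares. Precision is limited by the number of arrays.

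No test and no p-value was computed. Named miRNAs were the 10 highest and 10 lowest log2 ratios with a scanner error of at most 0.5, any miRNA above 0 by more than 2 errors, the 10 highest signals at 48 h, the 3 highest signals detected on a single array, and the members of 17 lists. Members, lists, and rules were chosen with earlier results of these data known. Mature sequences were taken from RefSeq (GRCm38.p6). The alternatives were no feature size, scaling by spike-ins, by all 9 positive controls or by the 75th percentile, quantile normalization, normexp with an offset of 50, the total gene signal, the processed table, probes detected on both arrays, a detection level of 5 errors, a signal of at least 20, leaving out the 10 most abundant miRNAs, and miRNAs with 2 or more probes. The computation was tested on simulated data. Computation used limma 3.58.1 in R 4.3.3, and pandas 2.3.3, matplotlib 3.10.9, and numpy 2.4.6 in Python 3.11.15.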

Additional observations from a re-analysis of the deposited data

How the results depend on the processing

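Scaling by all 9 positive controls and restriction to miRNAs with 2 or more probes on both arrays were chosen after seeing the data. No paired analysis was possible because 1 array stood for each group. Values are log2 ratios of 48 h over 24 h, unscaled for totals and medians of all and relative to the median for lists and single miRNAs. A value is called moved beyond its scanner error. Of 206 list medians 41 moved, and of 1090 values of 88 named miRNAs 193 moved. A further 21 changed sign although they had lain more than 2 scanner errors from the median. Sign changes of values nearer the median are not in that count. For example, let-7a-5p lay below the median in 8 of 13 settings. The cause was not tested except where the construction shows it. The counts detected on 1 array have no value where detection was not repeated.

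Without the feature size the total was −0.86, the median −1.26, and 3 miRNAs were higher. With spike-in scaling these were −0.82, −1.21, and 4. The 75th percentile, equal by construction, gave 0.45, 0.052, and 99. Quantile normalization, which equalises the arrays by construction, gave −0.0070, 0.11, and 104, with 24 miRNAs at least 2-fold above and 9 below the median. Its list medians were −0.11 (endothelium), −0.025 (let-7), 1.61 (leukocyte), −0.11 (miR-200), 0.16 (miR-29), 2.003 (qRT-PCR), and −1.42 (red blood cell), and let-7b-5p, miR-21a-5p, and miR-6366 each had −0.11 and miR-3473b −0.58. Each of the single miRNAs at −0.11 had the same rank on both arrays, which fixes this value. The processed table gave −0.098, 0.11, and 106, with 31 above and 9 below. Its list medians were −0.11 (endothelium), −0.45 (injury and repair), −0.046 (let-7), 2.16 (leukocyte), −0.056 (miR-200), 0.14 (miR-29), −0.46 (miR-30), 3.77 (qRT-PCR), and −1.41 (red blood cell), and let-7b-5p, miR-29a-3p, and miR-6366 each had −0.11, miR-21a-5p −0.45, and miR-3473b −0.48.

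The total gene signal gave a total of −0.63, 30 miRNAs higher, and 23 at least 2-fold above. Its list medians were −0.019 (endothelium), 0.25 (injury and repair), 0.16 (leukocyte), 0.12 (miR-17~92 and miR-106b~25), −0.058 (qRT-PCR), and 0.31 (stroma), and single miRNAs had −0.15 (miR-155-5p), −0.82 (miR-18a-5p), 0.38 (miR-1906), −0.37 (miR-214-3p), 1.89 (miR-21a-3p), and 0.68 (miR-5119). Normexp, whose offset shrinks dim ratios, gave a median of −0.42, with 0 above and 2 below. Its list medians were −0.29 (endothelium), 0.029 (injury and repair), −0.15 (let-7), 0.46 (leukocyte), 0.0037 (miR-10, miR-99/100, and miR-125), −0.15 (miR-15/16), 0.093 (miR-17~92 and miR-106b~25), −0.14 (miR-200), −0.42 (miR-23/27/24), −0.45 (miR-26 and miR-101), 0.094 (miR-29), −0.45 (miR-30), and 0.26 (stroma), with −0.10 for let-7b-5p, −0.021 for miR-10a-5p, −0.029 for miR-192-5p, 0.010 for miR-21a-3p, −0.11 for miR-3473b, and 0.043 for miR-5119.

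At 5 errors, 57 miRNAs were detected at 24 h only and 1 at 48 h only, with 2 above and 7 below, 0.27 for injury and repair, and 0.44 for stroma. With 2 or more probes these were 4 above, 10 below, 6 higher, 0.35, and 0.42. With a signal of at least 20, 8 lay below and injury and repair had 0.32. Without the 10 most abundant miRNAs the total was −0.82 and injury and repair had −0.56. The 10 highest stayed above the median in 10 of 10 under normexp and common probes. They did so in 9 under quantile normalization and in the processed table, and in 8 by total gene signal. Under all 4 plain scalings the 10 stayed above it by construction.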

Other observations

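Some miRNAs outside the lists share a seed or a precursor. The pair miR-181a-5p and miR-181b-5p, known from lymphocyte development and encoded side by side on chromosomes 1 and 2, had log2 ratios of −2.04 and −2.03, below the median of −0.89, or −1.68 and −1.46 by the probes detected on both arrays. The pair miR-221-3p and miR-222-3p on the X chromosome, which target cell cycle inhibitors, had −0.87 and −1.63, the latter −0.98 by the probe detected on both arrays. The pair miR-196a-5p and miR-196b-5p, encoded in Hox clusters, lay above the median, with −0.41 (291 and 219) and −0.42 (188 and 141). The pairs were looked up after the values were known.

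The 8 detected miRNAs of the repeat-derived miR-466, miR-467, miR-669, and miR-297 group had a median log2 ratio of −0.39, and 7 lay above the median of all. Their signals were dim, with a median of 48.3 at 24 h, and members are near identical in sequence, so single values are uncertain. The 48 miRNAs numbered 1000 or more had a median of −1.09, against −0.86 for the 142 with lower numbers or none, and a median GC content of 63.4% against 45.5% among the 32 and 123 with a RefSeq sequence.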
